A study of Rattus norvegicus with 7 samples.

Results

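The Notch pathway in NaF-treated rat oral epithelial cells was examined through 10 genes chosen by name: the receptors Notch1, Notch2 and Notch3, the ligands Jag1, Jag2 and Dll1, the DNA-binding protein Rbpj, its coactivator Maml1, and the target genes Hes1 and Hey1. Every probe set with exactly 1 gene symbol from this list was taken. They numbered 13, of 31042 probe sets on the array that are not controls, and the 10 genes were among 14217 named in this way. Rbpj had 3 probe sets, Notch1 had 2 and each other gene had 1.

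ROE2 is an immortalized epithelial line from the tongue of an 18-day-old rat fetus of the Wistar strain, and all samples carry its transgene, a temperature-sensitive SV40 large T-antigen. The cells were grown at 33 °C, moved for 24 h to 37 °C in DMEM/F12 medium with 2% FBS, and then given either vehicle, which was sterilized water at 1% of the volume, or 2 mM sodium fluoride (NaF) at the same temperature. Vehicle samples were taken at 0, 3, 6 and 12 h and NaF samples at 3, 6 and 12 h. Each of the 7 arrays held RNA pooled from 3 independent experiments, so no NaF time had a replicate array, and all results come from 1 cell line held at a temperature between the permissive and non-permissive ones.

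In Notch signaling, a ligand on one cell binds a receptor on its neighbor, and proteases, the last of them gamma-secretase, then release the intracellular part of the receptor. That fragment enters the nucleus, joins Rbpj on DNA and recruits a Mastermind protein such as Maml1, which turns Rbpj from a site of repression into a site of activation. The Hes and Hey genes are the best known targets and encode transcriptional repressors. In stratified epithelia the pathway is known for promoting differentiation as cells leave the basal layer.

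Values are log2 signals per probe set. A change is the log2 difference between a NaF array and the mean of the 4 vehicle arrays, given with its standard error (SE), and a gene was called higher or lower where limma's adjusted p over all 31042 probe sets was under 0.05. The spread in this test comes from the 4 vehicle arrays, which differ in time, and a NaF array, alone at its time, was taken to have the same spread. Array medians ran from 5.33 to 5.35, and the vehicle arrays correlated with each other at r between 0.9961 and 0.9987 across probe sets. Of 11 epithelial markers, 9 had a mean log2 signal of at least 7, including Krt5, Krt14 and Cdh1, against 1 of 7 mesenchymal markers (Vim), 1 of 5 leukocyte markers (Cd14), 1 of 5 skeletal muscle markers (Myh1) and 0 of 4 endothelial markers. The median epithelial marker, which was Epcam on every array, lay at 10.91 to 10.98 in vehicle and at 10.88 to 11.02 in NaF. Single markers did move at 12 h: 5 of the 11 epithelial markers were lower by limma, namely Dsg2 (-1.06), Tp63 (-0.80), Krt8 (-0.51), Dsp (-0.42) and Krt5 (-0.38), as were Vim (-1.19), Cd14 (-0.70) and Acta1, a muscle actin (-1.50). Of all named genes, 17.5% were lower at 12 h. The part of these marker changes in the falls of Notch1, Jag1, Dll1 and Hes1 at that time was not tested. In these bulk samples, fewer cells of a kind and less RNA per cell cannot be told apart.

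The windows around the transcription starts of Hes1 and Dll1 are shown because both genes had lower signals on every NaF array than on any vehicle array and both windows hold the letters TGGGAA, the core of the sequence that Rbpj binds, more than once. Capitals mark TGGGAA or its reverse complement TTCCCA. Each window runs from 250 bases before to 50 bases after the annotated start, 5′ to 3′ on the strand of the gene, and comes from RefSeq on the build GRCr8. Hes1 lies at chr11:84212996-84213295 and Dll1 at chr1:64993225-64993524, both on the minus strand.
Hes1: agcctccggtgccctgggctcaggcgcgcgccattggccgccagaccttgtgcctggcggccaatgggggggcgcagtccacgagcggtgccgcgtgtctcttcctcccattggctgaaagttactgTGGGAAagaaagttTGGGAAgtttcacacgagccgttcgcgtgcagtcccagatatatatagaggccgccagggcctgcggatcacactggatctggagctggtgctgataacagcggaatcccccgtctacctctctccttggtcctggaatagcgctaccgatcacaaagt
Dll1: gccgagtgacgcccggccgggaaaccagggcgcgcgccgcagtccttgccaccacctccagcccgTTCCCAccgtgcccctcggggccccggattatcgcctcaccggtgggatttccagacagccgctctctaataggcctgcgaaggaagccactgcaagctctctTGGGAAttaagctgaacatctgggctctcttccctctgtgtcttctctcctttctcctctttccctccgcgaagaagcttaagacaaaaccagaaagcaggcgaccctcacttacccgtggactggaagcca

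In Hes1 the matches start 123 and 109 bases before the transcription start, and both read in the direction of the gene. In Dll1 they start 185 bases before it, on the opposite strand, and 82 bases before it. The promoter table held 9 of the 10 genes (Hey1 was not among them). Notch3 had 1 match, Rbpj had 1 and 2 in its overlapping windows, and Notch1, Notch2, Jag1, Jag2 and Maml1 had 0. Of 33469 promoter windows of the same length, 25.7% held the letters on either strand and 3.85% held them at least 2 times. A match describes the letters only, and binding of Rbpj was not measured.

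The receptor, ligand and nuclear genes moved in different directions. At 12 h, Rbpj, Maml1 and Jag2 were higher and Notch1, Jag1, Dll1 and Hes1 were lower, while Notch2, Notch3 and Hey1 were not called. This made 10 of 13 probe sets, against 24.8% of all probe sets called at that time, with 5 higher and 5 lower, against 12.0% and 12.8%. Brighter probe sets were called more often: 8 of the 13 had a mean log2 signal of at least 7, and of all probe sets at or above that level 47.1% were called. Counted by gene through the brightest probe set, 3 were higher and 4 lower, beside 14.6% and 17.5% of all named genes (32.1% in all). At 6 h, 5 probe sets were called, all 3 of Rbpj and that of Maml1 higher and that of Dll1 lower, against 11.2% of all probe sets (4.58% higher and 6.65% lower). At 3 h only Maml1 was called, and was higher, against 0.718% of all probe sets called and 0.235% higher.

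**Figure D1:**
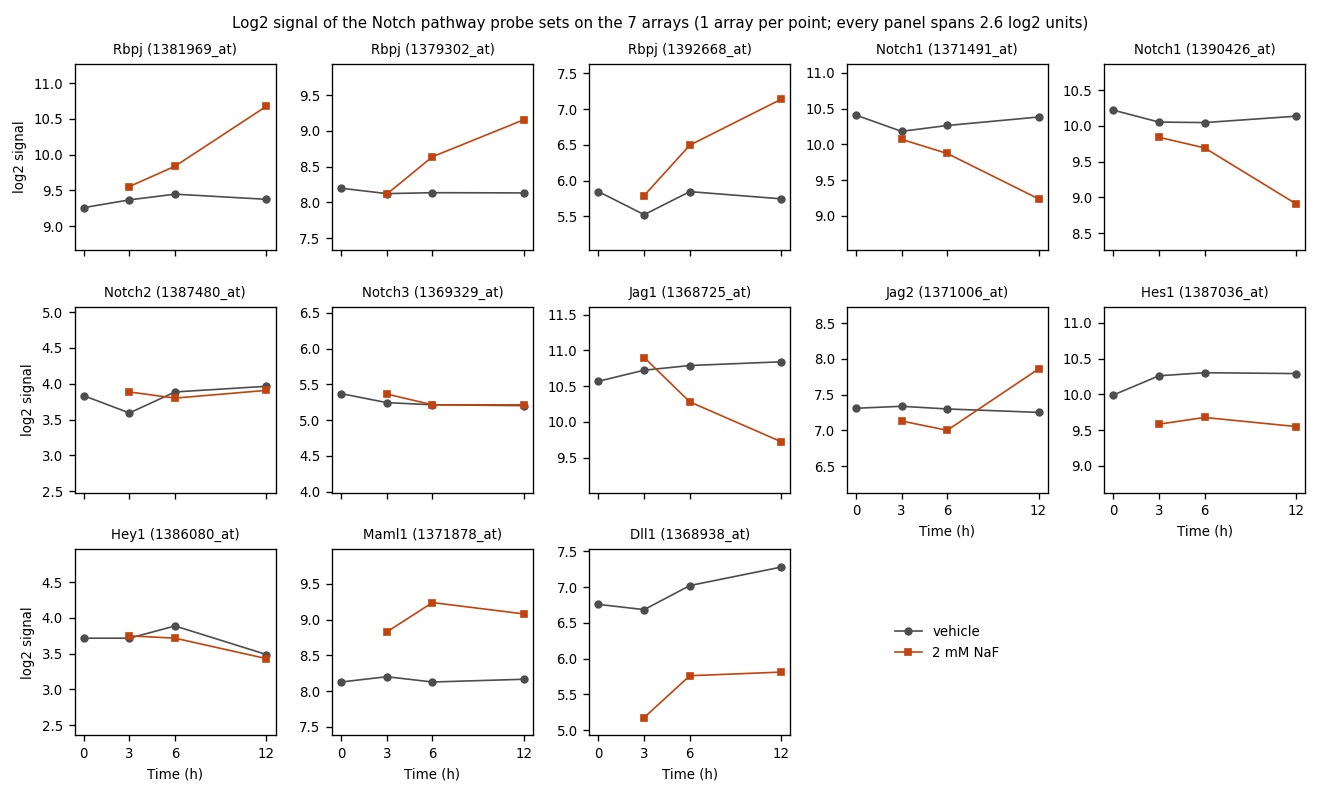
Log2 signal of the 13 probe sets on each of the 7 arrays, plotted against hours of incubation, with 1 panel for each probe set and separate lines for vehicle and 2 mM NaF. The NaF line of Rbpj (1381969_at) climbs to 10.68 at 12 h, above vehicle values of 9.26 to 9.45, while that of Hes1 stays between 9.55 and 9.68, below vehicle values of 9.99 to 10.30.

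Among the ligands, Dll1 was lower from the first NaF array on. Dll1 (1368938_at), a Delta-type ligand, had log2 signals of 6.76, 6.68, 7.02 and 7.28 in vehicle at 0, 3, 6 and 12 h and of 5.18, 5.76 and 5.81 in NaF at 3, 6 and 12 h. All 3 NaF arrays lay below all 4 vehicle arrays, and the vehicle arrays of 6 and 12 h were the highest. The changes were -1.76, -1.18 and -1.12 (SE 0.25), with limma adjusted p of 0.0689, 0.0496 and 0.0322. The NaF signals lay close to the array medians, and that of 3 h below them, so no fold is given. Relative to vehicle at the matching time, the differences were -1.51, -1.26 and -1.47. The 6 h call was lost on leaving out any 1 of the vehicle arrays (changes of -1.26 to -1.06, limma adjusted p 0.082 to 0.166). Of all probe sets, 0.00% to 8.26% were then called at 6 h. The 12 h call was lost without the vehicle array of 0, 3 or 6 h, where the change was -1.18, -1.21 and -1.10 and the limma adjusted p 0.0738, 0.0602 and 0.112.

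Jag1 and Jag2, the Serrate-type ligands, moved in opposite directions at 12 h. Jag1 (1368725_at) read 10.57, 10.72, 10.79 and 10.84 in vehicle and 10.90, 10.28 and 9.72 in NaF. Its 3 h NaF value was the highest of the 7 arrays and its 6 h and 12 h values were the lowest, so the groups overlapped. The changes were 0.17, -0.45 and -1.01 (SE 0.12), with limma adjusted p of 0.662, 0.0835 and 0.00625, and the fall from 3 to 12 h of NaF was -1.18 (limma adjusted p 0.0137). Jag2 (1371006_at) read 7.31, 7.34, 7.30 and 7.25 in vehicle and 7.13, 7.001 and 7.86 in NaF. Here the 3 h and 6 h NaF arrays lay below every vehicle array and the 12 h array above them. The change at 12 h was 0.56 (SE 0.06, limma adjusted p 0.00594), or 1.47-fold, after -0.17 and -0.30 at 3 and 6 h, which were not called (limma adjusted p 0.344 and 0.0526). From 6 to 12 h of NaF, Jag2 rose by 0.86 (limma adjusted p 0.017).

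Of the receptors, Notch1 fell in both of its probe sets and the others showed no called change. Notch1 (1371491_at) read 10.41, 10.18, 10.26 and 10.38 in vehicle and 10.07, 9.87 and 9.24 in NaF, and its other probe set (1390426_at) read 10.22, 10.05, 10.05 and 10.14 in vehicle and 9.84, 9.69 and 8.91 in NaF. In both, every NaF array was below every vehicle array and the 12 h array was the lowest. At 12 h the changes were -1.07 (SE 0.11, limma adjusted p 0.00462) and -1.20 (SE 0.09, limma adjusted p 0.00289), or 2.10-fold and 2.30-fold lower. At 3 h they were -0.24 and -0.27 and at 6 h -0.44 and -0.42, none of them called. The difference between 12 and 3 h of NaF was -0.83 (limma adjusted p 0.0233) and -0.93 (limma adjusted p 0.0131).

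Notch2 and Notch3 had signals at or below the array medians, where a probe set may report little of its own transcript. Notch2 (1387480_at) read 3.83, 3.59, 3.89 and 3.96 in vehicle and 3.89, 3.80 and 3.91 in NaF. Notch3 (1369329_at) read 5.37, 5.24, 5.21 and 5.20 in vehicle and 5.36, 5.21 and 5.21 in NaF. The NaF arrays lay within the vehicle range for both receptors, and the changes at 12 h were 0.09 (SE 0.15) and -0.04 (SE 0.09). No detection calls were used here, so whether these transcripts were present was not tested.

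Rbpj rose in all of its probe sets, and the rise grew with time. The brightest (1381969_at) read 9.26, 9.37, 9.45 and 9.38 in vehicle and 9.55, 9.84 and 10.68 in NaF. All 3 NaF arrays were above the vehicle arrays, by little at 3 h and most at 12 h. The changes were 0.19, 0.48 and 1.31 (SE 0.09), with limma adjusted p of 0.44, 0.0369 and 0.00252, and the 12 h signal was 2.49-fold that of vehicle. The step from 3 to 12 h of NaF was 1.12 (limma adjusted p 0.00984) and that from 6 to 12 h was 0.84 (limma adjusted p 0.0238).

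A further Rbpj probe set (1379302_at) read 8.20, 8.12, 8.14 and 8.13 in vehicle and 8.12, 8.64 and 9.16 in NaF, and the dimmest (1392668_at) read 5.85, 5.52, 5.85 and 5.75 in vehicle and 5.79, 6.50 and 7.14 in NaF. At 3 h of NaF, 1379302_at lay just below every vehicle array (8.115 against a lowest of 8.123) and 1392668_at lay inside the vehicle range. In both probe sets, the 6 h and 12 h NaF arrays lay above that range. Their changes at 12 h were 1.01 (SE 0.06) and 1.40 (SE 0.15), with limma adjusted p of 0.00237 and 0.00485. At 6 h they were 0.49 and 0.76, with limma adjusted p of 0.0164 and 0.0404. All Rbpj calls at 12 h held on leaving out each vehicle array. The 6 h calls did not: that of 1381969_at was lost without the vehicle array of 3, 6 or 12 h (limma adjusted p 0.0939, 0.0927 and 0.113), that of 1379302_at without that of 6 or 12 h (0.0799 and 0.067), and that of 1392668_at without that of 0, 6 or 12 h (0.0835, 0.119 and 0.131). Of all probe sets, limma called 8.26%, 6.90%, 0.00% and 1.27% at 6 h without the vehicle array of 0, 3, 6 or 12 h.

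Maml1, the coactivator that Rbpj and the receptor fragment recruit, was the earliest riser of the 10 genes. Maml1 (1371878_at) read 8.13, 8.20, 8.13 and 8.16 in vehicle and 8.83, 9.24 and 9.08 in NaF. The groups were far apart beside a vehicle SD of 0.0357 (n = 4), and the 6 h array was the highest. The changes were 0.67, 1.08 and 0.92 (SE 0.06), with limma adjusted p of 0.0354, 0.0053 and 0.00259, which is 1.59-fold, 2.12-fold and 1.90-fold. The 3 h call was lost without any 1 of the vehicle arrays (changes of 0.66 to 0.69, limma adjusted p 0.101 to 0.24), as was every other call of the 3 h comparison, and the 6 h call without the vehicle array of 6 h (1.07, limma adjusted p 0.0618). The 12 h call held without each of them.

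**Figure D2:**
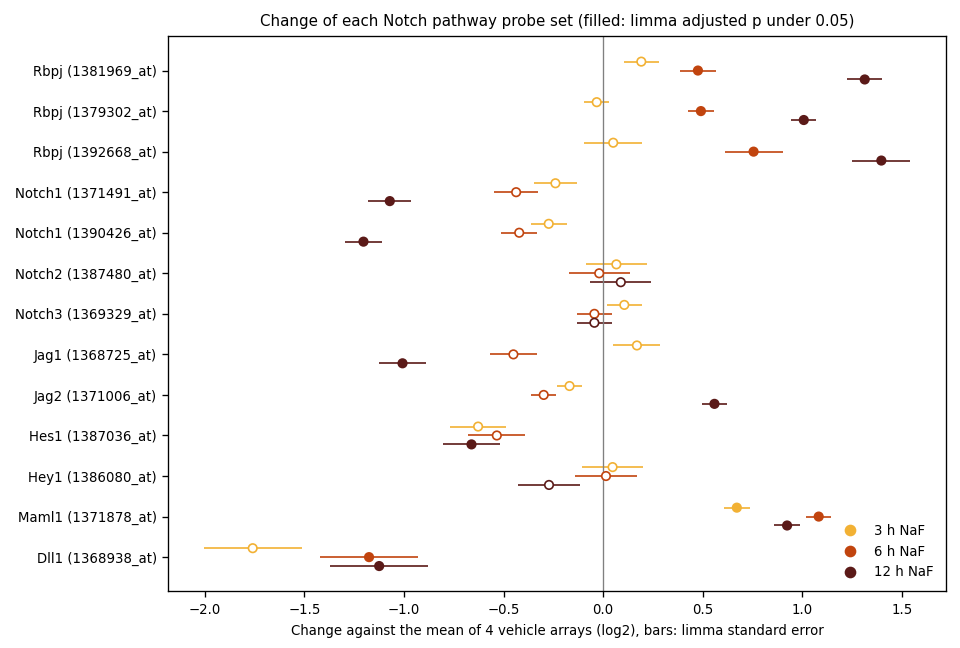
Log2 change of each of the 13 probe sets at 3, 6 and 12 h of NaF against the mean of the 4 vehicle arrays, with bars of 1 SE from limma. Rbpj moves from near 0 at 3 h to between 1.01 and 1.40 at 12 h, Maml1 is at 0.67 already at 3 h, and Hes1 lies between -0.66 and -0.53 at all times.

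Among the target genes, Hes1 was lower on every NaF array than on any vehicle array. Rbpj was called higher at 6 and 12 h but not at 3 h, where only its brightest probe set lay above the vehicle range. Hes1 (1387036_at), a basic helix-loop-helix repressor, read 9.99, 10.26, 10.30 and 10.29 in vehicle and 9.58, 9.68 and 9.55 in NaF. The NaF arrays lay close together and below all vehicle arrays, of which the 0 h array was the lowest. The changes were -0.63, -0.53 and -0.66 (SE 0.14), with limma adjusted p of 0.156, 0.0867 and 0.0309, or 1.55-fold, 1.45-fold and 1.58-fold lower. The 12 h call was lost without the vehicle array of 3, 6 or 12 h, with changes of -0.64, -0.63 and -0.63 and limma adjusted p of 0.0948, 0.0996 and 0.0967. Hes1 differed by -0.03 (SE 0.18) between 12 and 3 h of NaF (limma adjusted p 0.989), the interval over which the brightest Rbpj probe set rose by 1.12. Hey1 (1386080_at), a related repressor, read 3.71, 3.71, 3.89 and 3.49 in vehicle and 3.75, 3.71 and 3.43 in NaF. All of its values were below the array medians, and its change at 12 h was -0.27 (SE 0.16, limma adjusted p 0.306).

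With the times pooled, the 3 NaF arrays differed from the 4 vehicle arrays in Maml1 (0.89, SE 0.10, limma adjusted p 0.0122), Dll1 (-1.35, SE 0.20, limma adjusted p 0.0265) and Hes1 (-0.61, SE 0.10, limma adjusted p 0.0309), so in 3 of 13 probe sets against 1.99% of all (1.23% higher and 0.760% lower). Rbpj (1381969_at), whose NaF values spread with time, had 0.66 (SE 0.24, limma adjusted p 0.187) in this comparison. Without the 3 h NaF array 9 probe sets were called, beside 10.8% of all. Without the vehicle array of 3, 6 or 12 h there were 0, beside 0.219%, 0.0999% and 0.119% of all. There was 1 without the vehicle array of 0 h or the NaF array of 6 h, beside 0.119% and 0.209% of all. With time as a block over the arrays of 3, 6 and 12 h, limma called 0 of 31042 probe sets (4834 at an unadjusted p under 0.05), and Maml1 (0.88), Dll1 (-1.41) and Hes1 (-0.68) had limma adjusted p of 0.172, 0.141 and 0.172. In 6 of 13 probe sets the NaF and vehicle arrays did not overlap, with 2 above (Rbpj 1381969_at and Maml1) and 4 below (both of Notch1, Hes1 and Dll1). Of all probe sets 16.0% were apart in this way (8.10% above and 7.86% below), and of those with a mean log2 signal of at least 7 it was 29.5%.

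Within the NaF series, some of the genes differed between times by limma and others were not called. Between 12 and 3 h of NaF, 7 of 13 probe sets were called (all of Rbpj and Jag2 higher, both of Notch1 and Jag1 lower), against 16.5% of all probe sets (8.42% higher and 8.05% lower). Between 12 and 6 h there were 4 (2 of Rbpj and Jag2 higher, 1 of Notch1 lower), against 10.4% (5.64% higher and 4.78% lower). Without the vehicle array of 6 h both counts were 0, as they were over all 31042 probe sets. Without that of 12 h they were 4 and 0, against 6.40% and 0.00% of all probe sets. Without that of 3 h the count between 12 and 6 h was 2, against 7.06% of all probe sets. Between 6 and 3 h limma called 0 of the 31042 probe sets (0.00%), while 14.8% of them, and 4 of the 13, had an unadjusted p under 0.05. Maml1 differed by 0.25 between 12 and 3 h (limma adjusted p 0.11) and Dll1 by 0.64 (SE 0.31, limma adjusted p 0.26).

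Other genes that have been described as Notch targets did not move one way with Rbpj. Of 18 listed, 14 had a probe set with 1 symbol, among them the members Hes1, Hey1 and Notch3, and many of the others have further regulators. At 12 h, 2 were higher and 4 lower, with a median change of -0.05 against -0.02 over all named genes. Of all named genes, 14.6% were higher and 17.5% lower. Over all probe sets with a mean log2 signal of at least 7, the median change at 12 h was -0.008 and 47.1% were called. Of the 6 targets at or above that level, 1 was higher and 4 were lower, with a median change of -0.71. Those lower were Hes1, Ccnd1, the cyclin of early G1 (-1.13, SE 0.09, limma adjusted p 0.00304), Id1, an inhibitor of helix-loop-helix factors (-0.83, SE 0.08, limma adjusted p 0.00413), and Nrarp, a feedback inhibitor of the Notch complex (-0.76, SE 0.11, limma adjusted p 0.0107). Both other Ccnd1 probe sets fell too (-0.88 and -1.07), whereas the dimmer Nrarp probe sets were not called (-0.41 and 0.06).

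Of the 14 targets, those higher were Myc, a growth-promoting transcription factor (0.89, SE 0.14, limma adjusted p 0.0142), and Hey2, a Hes-related repressor (0.60, limma adjusted p 0.00992), whose mean log2 signal of 3.22 lay below the array medians. Myc read 10.73, 10.95, 10.65 and 10.62 in vehicle and 8.84, 10.71 and 11.62 in NaF, so it was the lowest of the 7 arrays at 3 h and the highest at 12 h. Its 12 h call was lost without the vehicle array of 0, 6 or 12 h (limma adjusted p 0.0538, 0.0622 and 0.0514). At 3 h, Myc (-1.89) and Id1 (-1.11) were lower, with limma adjusted p of 0.0258 for each, and at 6 h Id1 was lower (-1.14) and Hey2 higher (0.42). Hes5, Heyl, Hes2, Dtx1, Cdkn1a and Gata3 were not called at any time. Mean log2 signals of Hes5 (4.99), Heyl (4.92), Hes2 (4.57) and Dtx1 (3.98) lay below the array medians.

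**Figure D3:**
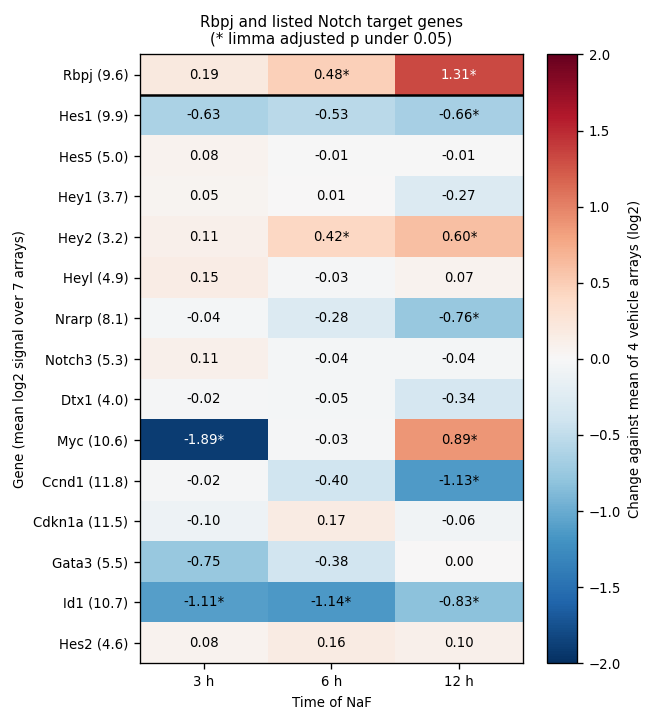
Heat map of the log2 change against the mean of the 4 vehicle arrays at 3, 6 and 12 h of NaF. The top row is Rbpj and the others are the 14 measured target genes, with an asterisk where limma adjusted p was under 0.05. At 12 h Myc (0.89) and Hey2 (0.60) are higher, and Ccnd1 (-1.13), Id1 (-0.83), Nrarp (-0.76) and Hes1 (-0.66) are lower.

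Calls in the wider pathway were about as frequent at 12 h as over all named genes. Of 56 further listed genes, 45 were measured, and limma called 0 at 3 h (unadjusted p under 0.05 in 11), 10 at 6 h, all lower by their brightest probe sets, and 14 at 12 h, with 3 higher and 11 lower. Of all named genes, 1.03% were called at 3 h, 14.3% at 6 h (5.32% higher and 8.98% lower) and 32.1% at 12 h (14.6% higher and 17.5% lower). Without the vehicle array of 6 h, or that of 12 h, 0 of the 45 were called at 6 h and 7 at 12 h. Of all probe sets, limma then called 0.00% and 1.27% at 6 h and 13.2% and 15.6% at 12 h. Without that of 0 h there were 1 higher and 5 lower at 6 h, and without that of 3 h 4 lower. These settings called 8.26% and 6.90% of all probe sets at 6 h. The median change of the 45 genes at 12 h was -0.02, the same to 2 decimals as over all named genes. The 6 with the largest called changes at 12 h included a pair of protease genes: Furin, which cuts the receptor during its maturation, fell by 1.09 (SE 0.08, limma adjusted p 0.0027), and Psenen, a gamma-secretase subunit, fell by 0.88 (SE 0.10, limma adjusted p 0.00533). Among the genes for trafficking and ubiquitin ligases, Dtx3l, a Deltex-family ligase, fell by 1.27 (SE 0.08, limma adjusted p 0.00237) and Numbl, a Numb-like adaptor that opposes the receptor, fell by 0.89 (SE 0.22, limma adjusted p 0.0448). Mib2, a ligase that acts on the ligands, rose by 0.74 (SE 0.07, limma adjusted p 0.0037). The call of Numbl was lost without the vehicle array of 0, 6 or 12 h (limma adjusted p 0.0855, 0.106 and 0.129).

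Corepressor genes, whose proteins join Rbpj when no receptor fragment is present, made up 6 of the 10 calls at 6 h. Of 13 measured corepressor genes, 6 were lower at 6 h, where 8.98% of all named genes were lower. Without the vehicle array of 6 h, 0 of the 13 were called at 6 h, as were 0 of all 31042 probe sets. Without that of 12 h, 0 of the 13 were called, beside 1.27% of all probe sets. Without that of 0 or 3 h 2 were lower, with 1 higher in the former case, beside 8.26% and 6.90% of all probe sets called. The 6 were Spen (-0.91), Tle3 (-0.79), L3mbtl3 (-0.72), Tle1 (-0.62), Cir1 (-0.37) and Hdac2 (-0.36). A dimmer probe set of Spen was lower too (-0.44, limma adjusted p 0.0268). Those of L3mbtl3 (-0.55, limma adjusted p 0.0737) and Cir1 (-0.26, limma adjusted p 0.179) were not called. At 12 h, 4 of the 13 genes were lower: L3mbtl3 (-0.71), Tle3 (-0.62), Hdac2 (-0.49) and Ctbp1 (-0.35). Without the vehicle array of 6 or 12 h, 1 of these was left, beside 13.2% and 15.6% of all probe sets called at 12 h. Kdm5a, a histone demethylase, was higher at 12 h in 2 of its probe sets (0.43 and 0.60, limma adjusted p 0.0397 and 0.00939), though not in its brightest (0.18, limma adjusted p 0.0954). Spen, a scaffold for repressors bound to Rbpj, stood at 0.26 and Tle1 at 0.32 by then, and neither was called. Without vehicle at 6 or 12 h, L3mbtl3 was no longer called at 12 h (limma adjusted p 0.0599 and 0.0519). Of 5 other coactivator genes, Crebbp, an acetyltransferase, was higher at 12 h in its brightest probe set (0.49, limma adjusted p 0.0494) but was not called in the others (-0.09 in the next brightest), and a dimmer one was higher at 6 h (0.47, limma adjusted p 0.0241). Kat2b, another acetyltransferase, was lower at 12 h (-0.61, limma adjusted p 0.00911). Maml2, a relative of Maml1, was higher at 12 h in 1 dimmer probe set (0.69, limma adjusted p 0.0277) and not in its brightest (0.03). Of 5 further ligands and receptors, the ligand Dll4, with a mean log2 signal of 5.22, was higher at 12 h (0.36, limma adjusted p 0.0195), while its other probe set, of mean 5.02, had -0.23 (limma adjusted p 0.636).

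**Figure D4:**
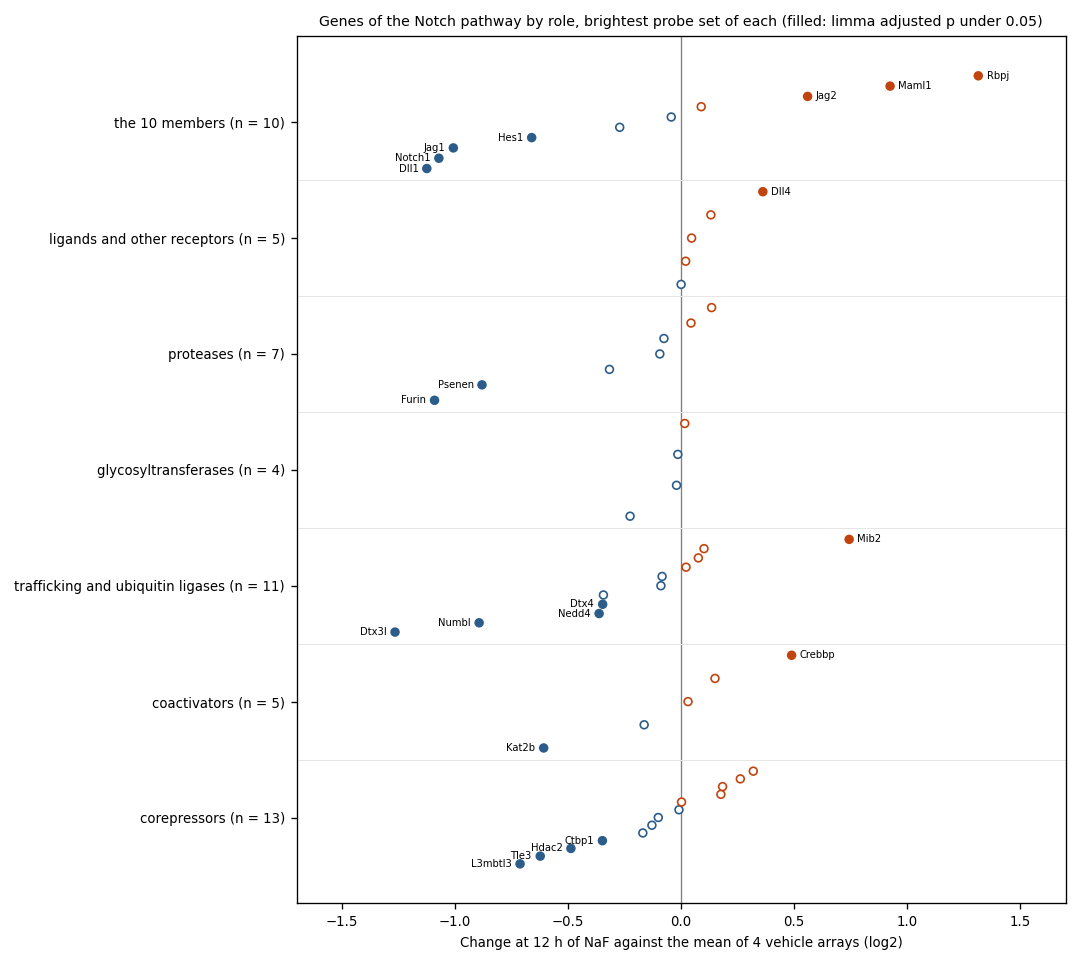
Log2 change at 12 h of NaF against the mean of the 4 vehicle arrays for the 10 members and the 45 further pathway genes. Genes are arranged by role, each point being the brightest probe set of a gene, and filled points mark limma adjusted p under 0.05. Of the 45 further genes, 3 are called higher and 11 lower, and 4 of those lower are corepressor genes.

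The time course of Rbpj was a common one. Over the 7 arrays, the genes whose brightest probe set was most like that of Rbpj by Pearson's r, among 7347 with a mean log2 signal of at least 7, were Tsr3 (0.997), Uso1 (0.996), Eipr1 (0.996), Ggct (0.995) and Rabggtb (0.994), and 839 had r above 0.9. For Hes1 they were Amz2 (0.996), Lad1 (0.991), Il1rl1 (0.988), Ndufv3 (0.985) and Mrps16 (0.981), and 101 had r above 0.9. These values describe 7 arrays that share a treatment and a time course.

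The actin control probe sets, whose 3′ minus 5′ gap falls as RNA integrity rises, had gaps of 1.53 to 2.83 in vehicle and 1.77 to 2.39 in NaF, which overlap. The 5S rRNA control read 4.90 to 5.46 in vehicle and 5.67, 6.65 and 6.00 in NaF at 3, 6 and 12 h, above every vehicle array, and its part in the results was not tested.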

How the data were processed

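Each array was hybridized with labeled RNA pooled from 3 experiments. The authors analyzed the scans in GeneSpring GX and deposited a log2 signal for each probe set, which was used without further scaling. The software version and the normalization were not given in the sources used here. After 57 control probe sets were left out, 31042 remained. An annotation of 2016 gave 1 symbol to 20826 of them, several to 436 and none to 9780. The functions lmFit and eBayes of limma 3.58.1 (R 4.3.3) compared each NaF array with the 4 vehicle arrays, with 3 residual and 1.8 prior degrees of freedom, and NaF times with each other. A further fit compared 3 NaF with 4 vehicle arrays. P-values were adjusted by Benjamini-Hochberg over all 31042 probe sets. In the fit by time, these p-values rest on the spread between the 4 vehicle pools, which differ in time. The fit of 3 NaF arrays also uses the spread between NaF times. The spread between NaF pools of the same time was not measured, and the number of arrays limits the precision. The 0 h time was taken from the methods of the study. The text names every probe set of the 10 genes, up to 6 genes of the pathway and target lists with the largest called changes at 12 h, and the 5 genes most correlated with Rbpj and with Hes1. Other listed genes, such as those of 6 h and the remaining called ones, were named after their values were seen. Members and lists were chosen with earlier results of these data known. The fits were tested on simulated data. Alternatives were filters on signal, other scalings, a variance trend, a robust prior, the vehicle array of the same time as baseline, time as a block and each array left out. Those of the wider lists and of comparisons between NaF times were added after seeing the data.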

Additional observations from a re-analysis of the deposited data

Results flagged for a closer look

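Among the 4 vehicle arrays, the 0 h array stood apart in a pair of probe sets. Rbpj 1379302_at was highest there, and the gap to the next array made up 0.831 of the vehicle range. Hes1 was lowest there, with a gap of 0.863 of the range. Chance alone gives such a gap in about 1 in 20 groups, and 13 probe sets were examined.

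Several genes changed by different amounts at different times of NaF, by limma's test of the difference on the brightest probe set. Rbpj was higher at 12 h than at 6 h by 0.84 and than at 3 h by 1.12. Notch1 was lower at 12 h than at 3 h (-0.83), as was Jag1 (-1.18). Jag2 was higher at 12 h than at 6 h by 0.86 and than at 3 h by 0.73. Each of these differences rests on single arrays.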

How the results depend on the processing

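At 12 h, 8 of the 10 calls held under every alternative that tested them. These were the calls of Rbpj, Notch1, Jag1, Jag2 and Maml1, while those of Hes1 and Dll1 did not hold. The vehicle array of the same time as baseline gave changes without a test. The mean signal filter left out Rbpj 1392668_at. No value called in the comparison as reported changed direction. At 3 h, where 1 probe set was called, a mean signal filter of 7 gave 2 and a highest signal filter of 7 gave 3. With these filters 9.04% and 8.79% of all fitted probe sets were called. Equal array medians gave 2 and quantile normalization gave 2, against 1.18% and 1.77% of all probe sets. Leaving out any vehicle array gave 0, as it did over all probe sets (0.00%). At 6 h, where 5 were called, the same filters gave 8 and 10, against 38.9% and 38.4% of all fitted probe sets. Leaving out a vehicle array gave 0 to 5, against 0.00% to 8.26% of all probe sets. Over the 3 NaF arrays, where 3 were called, time as a block gave 0 and leaving out an array gave 0 to 9. Of all probe sets, 0.0999% to 10.8% were called with an array left out. Between 6 and 3 h of NaF the filters gave 2 and 2, against 6.86% and 6.20% of all fitted probe sets. Between 12 and 6 h, where 4 were called, the highest signal filter gave 7, against 40.2% of all fitted probe sets. Leaving out a vehicle array gave 0 to 4 there, against 0.00% to 8.26% of all. Between 12 and 3 h, where 7 were called, leaving one out gave 0 to 7, against 0.00% to 15.5% of all. Of the wider pathway, 14 genes were called at 12 h and 7 to 12 with a vehicle array left out, beside 13.2% to 23.2% of all probe sets. Filters change which probe sets enter the adjustment and the estimated spread, and leaving out an array lowers the residual degrees of freedom. Probe sets near or below the array medians (Notch2, Notch3, Hey1, Hey2 and, in NaF, Dll1) have little signal above background to show a change. The block pairs the arrays of 3, 6 and 12 h by time, and with it limma called 0 of all 31042 probe sets.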
